A study of Rattus norvegicus with 12 samples.

Results

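Some of the 60-base probes on this rat array overlap one another in sequence, so that 2 probes can read a stretch of the same RNA. The overlapping probes described here carry the array's rclstr names and share at least 20 consecutive bases, on the same strand, with another rclstr probe. Probes sharing 20 bases with the reverse complement of an rclstr probe were left out, and both probes of a pair had to be well above background on all 4 arrays of at least 1 group. This gave 1593 probes in 870 pairs, of 57102 rclstr probes and 60148 distinct probes in all. Detection entered the choice, and no measured change did.

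RNA came from rat brain in 3 groups of 4 samples: control animals labelled normal, a middle cerebral artery embolization model at day 7, and the same model at day 7 after Buyang Huanwu Decoction (BHD), a herbal formula. The model blocks a main artery of the brain and is used to study ischaemic stroke. The tissue is given as brain in one field, but model and BHD descriptions name the hippocampus, and the series' design text has every group made ischaemic. The strain field reads male, the age and the BHD dose are not given in the sources used here, and no label links a sample to an animal. The p-values therefore reflect sample-to-sample spread, which may be technical.

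A circular RNA forms when a downstream splice site is joined back to an upstream one, and it shares most of its sequence with the linear transcript of its gene. Labelling began from an oligo-dT-like primer on total RNA, so signal on a probe need not come from a circle. A pair of overlapping probes is informative because any RNA that spans both is read on each, whereas RNAs that share only the common run and differ on its flanks can reach the probes unequally. Paralogous genes, repeats and alternative splicing are known sources of such shared runs. What each rclstr name stands for was not stated in the files.

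The pairs took 3 forms. In 577 tiled pairs the probes matched at every aligned base and were only shifted along the same sequence. In 115 near-identical pairs they matched at 90% or more of the aligned bases, and in 178 diverging pairs the sequence departed outside the shared run. The pairs below are those the results turn on. Capitals mark the longest run that both probes of a pair share, and lower case marks the rest. First is a tiled pair with 36 shared bases, which rose on both probes in BHD samples against control.

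rclstr_33014_458_2017: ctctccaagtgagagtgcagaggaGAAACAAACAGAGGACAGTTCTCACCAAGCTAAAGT
rclstr_32788_497_1017: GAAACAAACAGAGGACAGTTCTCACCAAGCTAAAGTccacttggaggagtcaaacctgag

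A tiled pair with 49 shared bases fell on both probes in BHD samples against the model.

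rclstr_8237_208_7: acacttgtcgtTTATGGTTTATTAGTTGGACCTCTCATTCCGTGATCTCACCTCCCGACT
rclstr_59983_319_1005: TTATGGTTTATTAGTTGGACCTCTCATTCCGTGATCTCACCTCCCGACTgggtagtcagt

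A tiled pair with 56 shared bases lies just upstream of Wbp1 and fell on both probes in BHD samples against control.

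rclstr_43521_96_1005: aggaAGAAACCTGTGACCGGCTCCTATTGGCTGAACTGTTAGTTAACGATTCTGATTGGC
rclstr_34054_41_6: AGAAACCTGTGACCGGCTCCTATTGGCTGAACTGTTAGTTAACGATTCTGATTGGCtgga

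The next pair, with 24 shared bases, had the smallest adjusted p for unequal change in both comparisons that hold BHD samples.

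rclstr_54920_77_24: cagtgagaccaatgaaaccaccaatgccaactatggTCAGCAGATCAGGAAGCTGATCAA
rclstr_54609_131_19: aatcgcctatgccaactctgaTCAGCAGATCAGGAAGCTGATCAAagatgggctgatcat

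A further 4 pairs are shown because their probes changed unequally. The first 3 diverge outside the run, and the last is tiled.

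rclstr_60727_240_1008: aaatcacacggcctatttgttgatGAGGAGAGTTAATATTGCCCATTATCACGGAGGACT
rclstr_3211_4726_17: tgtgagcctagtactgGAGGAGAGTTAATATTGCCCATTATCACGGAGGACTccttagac
rclstr_28918_865_12: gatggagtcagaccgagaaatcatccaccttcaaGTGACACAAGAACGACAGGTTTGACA
rclstr_38571_232_18: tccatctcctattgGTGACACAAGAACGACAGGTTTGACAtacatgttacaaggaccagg
rclstr_24203_1429_12: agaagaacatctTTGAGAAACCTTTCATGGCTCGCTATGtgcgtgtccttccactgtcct
rclstr_28760_1453_12: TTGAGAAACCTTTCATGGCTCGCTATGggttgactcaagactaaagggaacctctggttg
rclstr_36421_1142_19: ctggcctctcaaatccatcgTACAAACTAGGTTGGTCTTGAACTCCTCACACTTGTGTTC
rclstr_41723_849_68: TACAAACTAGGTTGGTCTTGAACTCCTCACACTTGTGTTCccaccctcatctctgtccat

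The shared run was 20 to 29 bases long in 373 pairs, 30 to 39 in 174, 40 to 49 in 128 and 50 to 59 in 195, with a median of 33. Diverging pairs were mostly of short overlap, with 146 of 178 in the shortest class. The 1593 probes formed 760 linked groups, of which 702 held only 2 probes, 48 held 3 and the largest held 8. A probe in more than 1 pair (132 probes) makes those pairs share values. Median GC content was 46.7% both in these probes and in rclstr probes that share no run. Before the detection filter, 79.5% of overlapping probes passed it, against 72.8% of rclstr probes that share no run. Of the 870 pairs, 835 had both probes well above background on all 12 arrays.

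On each array, the level of a probe is its log2 processed signal minus the array's 75th percentile of that signal (397 to 452 across arrays). The median level was 0.51 in the members, -1.27 in all tested probes and -1.36 in tested rclstr probes that share no run. Shares called in members and in all tested probes therefore compare probes of unlike brightness. Correlation between arrays over the tested probes was 0.979 to 0.993. Control and model arrays lay on 1 slide, in different rows, and the BHD arrays on another slide. BHD treatment therefore cannot be told apart from slide, and the model group cannot be told apart from slide row. BHD replicate 2 stood apart from the other BHD arrays on the members' first principal component (30.5% of variance), at -6.00 against 4.40 to 7.73, close to the controls at -8.92 to -5.60. On the second component (16.3%) it lay far from the controls, at -10.36 against 2.42 to 3.99. Model replicate 4 stood apart from the other model arrays on both. It was at 9.89 against -1.16 to 3.74 on the first and at 7.38 against -2.92 to 2.69 on the second.

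Within a group, the probes of a pair moved together from array to array. The residual SD of the log2 difference between the probes had a median of 0.078 in tiled pairs, 0.080 in near-identical pairs and 0.111 in diverging pairs. Had the probes varied independently, the medians would have been 0.212, 0.227 and 0.264. Repeated spots of a single probe, the finest comparison the array allows, gave a median of 0.082 over 266 spot pairs. Among pairs with a mean level above the 75th percentile, the median was 0.052 for tiled pairs, 0.065 for diverging pairs and 0.049 for repeated spots. Among dimmer ones it was 0.144, 0.269 and 0.121. Tiled probes thus differed from one another by about as much as repeated spots when bright, and diverging probes by more at either brightness.

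Across groups, the changes of the probes of a pair were correlated, least so in diverging pairs for the comparisons that hold BHD. The 5′ probe of a pair is the one in which the shared run lies nearer the 3′ end. In the 21 pairs where the run has the same place in both, the order follows the probe ID. Outside tiled pairs, these names need not give the order of the probes on a transcript. Over the 577 tiled pairs, Pearson's r between the changes of the 5′ and 3′ probe was 0.85 for model against control, 0.74 for BHD against model and 0.88 for BHD against control. Over the 115 near-identical pairs it was 0.88, 0.73 and 0.88, and over the 178 diverging pairs 0.83, 0.59 and 0.63. For model against control, within runs of 20 to 29 bases, tiled and diverging pairs both had 0.83. At that run length, tiled pairs had 0.72 and diverging pairs 0.60 for BHD against model. For BHD against control they had 0.84 and 0.62. These are descriptions over pairs that share arrays and, in part, probes. For scale, pairs whose shared run was exactly 20 bases (60 pairs) had a median unequal change of 0.070 in size for model against control, and 86 pairs just outside the rule, at 19 bases, had 0.045.

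The first comparison asked what differed between the embolization model and control. limma called 1 of the 1593 probes, beside 0.047% of all 44719 tested probes, at an adjusted p under 0.05. At an unadjusted p under 0.05, 307 members passed (19.3%), close to the 17.6% of all tested probes. The called probe was rclstr_30264_1601_1014, with control levels of 1.88, 1.76, 1.66 and 1.75 and model levels of 1.24, 1.15, 1.11 and 1.35. The groups did not overlap, and the change was -0.55 ± 0.07 (SE; n = 4 and 4; limma adjusted p = 0.039). Its tiled partner rclstr_27910_1749_32, which shares 55 bases, changed by -0.54 ± 0.08 and just missed the threshold (limma adjusted p = 0.051). The call was lost with no filter on dim probes, with only the 2 groups compared, without any 1 of the 4 control arrays, without model replicates 2 or 3, and without BHD replicates 1, 3 or 4. It was also lost with a block for replicate number. The highest adjusted p over all alternatives was 0.117.

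No pair had both probes called in this comparison, and none had a called unequal change (limma, 0.0% of 870 pairs; 85 at an unadjusted p under 0.05). An unequal change is the change of the 3′ probe minus that of the 5′ probe, tested on the difference taken within each array. Leaving out model replicate 2, or BHD replicate 3, called 1 pair. The split of calls depended on the centring. When arrays were centred on the E1A spike-in probes, the median of all tested probes moved from 0.00 to 0.18, and 117 members were called, 115 of them higher. Over the whole array, 5.02% of tested probes were then called, 2139 of 2243 of them higher, a lean seen across the whole array. Any centring cancels within a pair, so the count of unequal pairs stayed at 0.

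The second comparison asked what differed between BHD-treated and untreated model samples. limma called 22 of 1593 probes (1.38%, beside 3.19% of all tested probes), 7 higher (0.691% of all tested) and 15 lower (2.5% of all tested). With E1A centring the split was 4 higher and 29 lower, and 4.43% of all tested probes were called, only 194 of 1983 of them higher. Both probes were called the same way in 3 pairs, 1 rising and 2 falling, and in no pair were they called in opposite directions under limma or any alternative. In 20 further pairs 1 probe was called, and in 15 of these its partner changed in the same direction, no larger a share than the 702 of all 870 pairs (80.7%). Without model replicates 1 or 4 the called members numbered 10 and 11, and without BHD replicates 1 or 3 they numbered 12 and 13. Over all tested probes, 712, 856, 705 and 755 were then called, against 1428 with every array.

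The falling pair was the tiled rclstr_8237_208_7 and rclstr_59983_319_1005 shown above. The first had levels of -2.59, -2.77, -2.47 and -2.53 in the model and -3.08, -3.18, -3.25 and -2.93 with BHD, a change of -0.52 ± 0.10 (limma adjusted p = 0.021). The second had -1.70, -1.97, -1.59 and -1.72 in the model and -2.92, -2.76, -3.04 and -2.40 with BHD, a change of -1.03 ± 0.15 (limma adjusted p = 0.0055). On both probes every BHD array lay below every model array. The changes differed by -0.51 (95% interval -0.81 to -0.22), which did not pass after adjustment (limma adjusted p = 0.108). The call of the first probe was lost without model replicates 1, 3 or 4 or BHD replicates 1 or 3, where its adjusted p reached at most 0.066. It was also lost with normexp background correction and with a block for replicate number.

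The rising pair, rclstr_65231_9_42 and rclstr_43874_816_30, matched at 46 of 52 aligned bases. The first had levels of 4.66, 4.78, 4.88 and 4.66 in the model and 5.13, 5.06, 5.23 and 5.25 with BHD, a change of 0.43 ± 0.08 (limma adjusted p = 0.015). The second had 3.89, 3.99, 4.05 and 3.71 in the model and 4.57, 4.46, 4.66 and 4.63 with BHD, a change of 0.67 ± 0.09 (limma adjusted p = 0.0047). Groups did not overlap on either probe, and the first was not called with E1A centring (limma adjusted p = 0.065). The 3′ probe rose more, by 0.24 (95% interval 0.14 to 0.35; limma adjusted p = 0.027), and this was lost with only the 2 groups compared and without model replicates 3 or 4 or BHD replicates 1, 2 or 3 (highest adjusted p 0.084).

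Unequal change passed in 18 of 870 pairs (2.07%), with the 3′ probe relatively higher in 11 and lower in 7. By form, these were 13 of 178 diverging pairs, 3 of 115 near-identical pairs and 2 of 577 tiled pairs. By overlap, 15 had a run of 20 to 29 bases, 3 a run of 30 to 39, and none a longer run. Within the shortest class, 12 of 146 diverging pairs passed against 1 of 164 tiled pairs. Differences between these shares were not tested. The count fell to 10 without model replicate 3 or BHD replicate 3 and to 11 without BHD replicate 1, and with normexp background correction it was 99. The contrast by form was smaller with normexp, which called 58 of 577 tiled, 17 of 115 near-identical and 24 of 178 diverging pairs.

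The clearest of these pairs was rclstr_54920_77_24 with rclstr_54609_131_19, which matched at 40 of 45 aligned bases. The 5′ probe had levels of -2.68, -2.90, -2.81 and -2.68 in control, -2.57, -2.89, -2.69 and -2.57 in the model, and -1.72, -1.98, -1.65 and -1.72 with BHD. All BHD arrays lay above all others, and the change against the model was 0.91 ± 0.10, or 1.88-fold (limma adjusted p = 0.0016). The 3′ probe had 3.38, 3.23, 3.43 and 3.46 in the model and 3.45, 3.27, 3.50 and 3.53 with BHD. Its groups overlapped, and its change of 0.07 ± 0.08 was not called (limma adjusted p = 0.75). The changes differed by -0.85 (95% interval -0.97 to -0.72; limma adjusted p = 1.4e-05). Unequal change in this pair was called under all 21 alternatives run. E1A centring and no filter on dim probes could not alter it. Centring cancels within a pair, and that filter does not enter the fit of pairs.

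A second pair held probes of a linked trio. The probe rclstr_60727_240_1008 had levels of -2.47, -2.38, -2.47 and -2.57 in the model and -2.08, -1.99, -1.98 and -2.21 with BHD, a change of 0.41 ± 0.08 (limma adjusted p = 0.019). Groups did not overlap, but the call was lost with E1A centring, with only the 2 groups compared, and without model replicates 1 or 4 or BHD replicate 3 (highest adjusted p 0.058). The probe also lost its call with a block for replicate number. Its partner rclstr_3211_4726_17 had 0.81, 0.90, 0.81 and 0.68 in the model and 0.71, 0.84, 0.89 and 0.75 with BHD, and the groups overlapped throughout. The changes differed by -0.41 (95% interval -0.49 to -0.32; limma adjusted p = 0.00025). The third probe, rclstr_13287_1517_1016, is tiled with rclstr_3211_4726_17 over 40 bases, and their changes differed by -0.07 (95% interval -0.18 to 0.04; limma adjusted p = 0.61). The probe rclstr_60727_240_1008, which shares 24 bases with rclstr_13287_1517_1016, rose by 0.34 more than that probe (95% interval 0.21 to 0.47; limma adjusted p = 0.012). In model against control the grouping differed and no difference was called. There rclstr_60727_240_1008 and rclstr_13287_1517_1016 differed by 0.0050 (95% interval -0.12 to 0.13), and the tiled probes by 0.19 (0.09 to 0.30; limma adjusted p = 0.21).

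The third comparison set BHD-treated model samples against control. It shares its BHD arrays with the second comparison and its control arrays with the first. limma called 136 of 1593 probes (8.54%, beside 10.7% of all tested probes), 63 higher (3.85% of all tested) and 73 lower (6.89% of all tested). The split was 91 higher and 76 lower with quantile normalization, which called 10.6% of all tested probes, 2191 of 4718 of them higher. It was 111 higher and 16 lower with E1A centring, which called 9.27% of all tested probes, 2678 of 4146 of them higher. Both probes were called the same way in 41 pairs, 20 rising and 21 falling, and 1 probe was called in 65. Where 1 probe was called, its partner changed in the same direction in 58 of 65 pairs, against 740 of all 870 pairs (85.1%). Leaving out control replicates 1, 2, 3 or 4 left 85, 53, 49 or 50 called probes and 21, 12, 11 or 12 concordant pairs. Over all tested probes, 3452, 2727, 2400 or 2633 were then called, against 4802 with every array. Leaving out BHD replicates 1 or 3 left 56 or 59 probes and 13 or 14 pairs, with 2564 or 2506 of all tested probes called. Without BHD replicate 4 there were 22 concordant pairs, and 3603 of all tested probes were called. Among the 835 pairs well above background on all 12 arrays, 40 were concordant and 22 had unequal change.

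The rising pair was the tiled rclstr_33014_458_2017 and rclstr_32788_497_1017. The first had levels of -3.83, -3.16, -3.69 and -3.39 in control and -2.08, -2.63, -2.93 and -2.21 with BHD, a change of 1.06 ± 0.22, or 2.08-fold (limma adjusted p = 0.015). The second had -2.71, -2.54, -2.87 and -2.30 in control and -1.24, -1.79, -1.91 and -1.14 with BHD, a change of 1.08 ± 0.23 (limma adjusted p = 0.015). BHD arrays lay above control arrays on both probes. The third probe of their linked group, rclstr_25341_1049_26, changed by 0.97 ± 0.22 (limma adjusted p = 0.022). The first probes' changes differed by 0.03 (95% interval -0.21 to 0.26; limma adjusted p = 0.91). In the model, against control, the 3 probes had changes of 0.79, 0.84 and 0.67 that were not called (limma adjusted p = 0.14, 0.14 and 0.18).

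The falling pair was rclstr_28918_865_12 and rclstr_38571_232_18, which share 26 bases and diverge outside them. The first had levels of -0.02, -0.01, -0.59 and -0.55 in control and -0.71, -1.27, -1.15 and -1.21 with BHD, a change of -0.80 ± 0.21 (limma adjusted p = 0.034). The second had -1.90, -2.17, -2.73 and -2.25 in control and -3.91, -4.61, -4.27 and -4.43 with BHD, a change of -2.05 ± 0.31 (limma adjusted p = 0.0039). Both fell with no overlap between groups. The second fell further, by -1.25 (95% interval -1.61 to -0.89; limma adjusted p = 0.0035). With normexp background correction the difference was -0.25 and was not called (limma adjusted p = 0.128). The call of the first probe was lost with E1A centring, with no filter on dim probes, and without control replicates 1 or 2 or BHD replicates 2, 3 or 4 (highest adjusted p 0.085). In the model against control the probes changed by -0.88 and -1.34, neither called (limma adjusted p = 0.11 and 0.11). In BHD against model they changed by 0.09 and -0.71, neither called (limma adjusted p = 0.90 and 0.27). Those last changes differed by -0.79 (95% interval -1.15 to -0.43, limma adjusted p = 0.032).

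Unequal change passed in 23 of 870 pairs (2.64%), with the 3′ probe relatively higher in 14 and lower in 9. These were 15 diverging, 2 near-identical and 6 tiled pairs. By overlap, 16 had a run of 20 to 29 bases, 5 a run of 30 to 39 and 2 a run of 40 to 49. No pair with 50 or more shared bases was called, and repeated spots of a single probe gave no call either (limma, 0 of 266; 16 at an unadjusted p under 0.05). Of the 23 pairs, 4 also had both probes called the same way, 7 had 1 probe called and 12 had neither called. Without control replicates 1, 2, 3 or 4 the count was 9, 11, 15 or 13, without BHD replicates 1 or 3 it was 14 or 13, and with normexp it was 40.

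The pair rclstr_54920_77_24 and rclstr_54609_131_19 again led, with an unequal change of -0.85 (95% interval -0.97 to -0.72; limma adjusted p = 1.5e-05). Its 5′ probe changed by 1.00 ± 0.10 (limma adjusted p = 0.00071). The next was rclstr_24203_1429_12 with rclstr_28760_1453_12, which share 27 bases and then diverge on the 3′ side. The first had levels of 3.83, 3.88, 3.74 and 3.91 in control, 3.39, 2.88, 3.39 and 3.20 in the model, and 3.21, 3.22, 3.59 and 3.43 with BHD. The second had 2.13, 2.21, 2.07 and 2.30 in control, 1.72, 1.13, 1.70 and 1.503 in the model, and 1.86, 1.74, 2.21 and 2.04 with BHD. Control and BHD arrays did not overlap on the first probe and did on the second. In the model against control the probes changed by -0.63 and -0.67, neither called (limma adjusted p = 0.092 and 0.094). In BHD-treated model samples against control, their changes were -0.48 ± 0.12 (limma adjusted p = 0.033) and -0.22 ± 0.14 (limma adjusted p = 0.33). These changes differed by 0.26 (95% interval 0.19 to 0.33; limma adjusted p = 0.0035). The unequal change was called under all 21 alternatives, of which E1A centring and no filter on dim probes could not alter it. The call of the first probe was lost with E1A centring and with no filter on dim probes. It was also lost with a block for replicate number, without any 1 control array and without BHD replicates 1, 2 or 4. Its highest limma adjusted p over all alternatives was 0.092.

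Among tiled pairs, the largest unequal change was on rclstr_36421_1142_19 and rclstr_41723_849_68, which share 40 bases. This pair was chosen after its values were seen. The first had levels of -2.35, -2.13, -2.99 and -2.83 in control and -4.47, -4.02, -5.13 and -4.12 with BHD, a change of -1.86 ± 0.26 (limma adjusted p = 0.003). The second had -0.86, -0.93, -1.53 and -1.02 in control and -1.66, -1.78, -2.01 and -1.91 with BHD, a change of -0.76 ± 0.15 (limma adjusted p = 0.011). Both fell without overlap, by amounts that differed by 1.102 (95% interval 0.63 to 1.57; limma adjusted p = 0.023). With normexp the difference was 0.15 and was not called, and the call was also lost with only the 2 groups compared and without control replicates 1, 2 or 3 or BHD replicate 1 (highest adjusted p 0.336). A block for replicate number lost it as well. In the model against control the probes changed by -1.53 and -0.32, neither called (limma adjusted p = 0.071 and 0.28). Those changes differed by 1.21 (95% interval 0.74 to 1.68, limma adjusted p = 0.14). In BHD against model the changes differed by -0.11 (limma adjusted p = 0.89).

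Gene names could be given to few members. At 40 or more exact bases, 36 of the 1593 probes matched a RefSeq window (GRCr8) of 250 bases before to 50 after a gene's start. MicroRNA hairpins, searched at the same length, matched none of them, and the rest of the genome was not searched. In 12 pairs both probes matched the same single gene, on the gene's strand for 9 genes and on the other strand for 3. Because all matches are to these windows, most lie upstream of the annotated start, and a match describes position only. None of these 12 pairs had a called unequal change in any comparison (limma).

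The pair upstream of Wbp1, which encodes a WW domain binding protein, was the only one of the 12 with a called probe, here and in BHD against model, where its second probe changed by -0.46 (limma adjusted p = 0.016). Its probes lie on chromosome 4 at 117185310 to 117185369 and at 117185306 to 117185365, ending 31 and 27 bases before the annotated start. The first, rclstr_43521_96_1005, had levels of -3.30, -3.28, -3.13 and -3.33 in control and -3.78, -3.87, -3.90 and -3.63 with BHD, a change of -0.54 ± 0.14 (limma adjusted p = 0.032). The second, rclstr_34054_41_6, had -3.24, -3.20, -3.02 and -3.27 in control and -3.43, -3.66, -3.58 and -3.63 with BHD, a change of -0.39 ± 0.08 (limma adjusted p = 0.017). All BHD arrays lay below all control arrays on both. The changes differed by 0.15 (95% interval -0.08 to 0.37; limma adjusted p = 0.56). The call of the first probe was lost with no filter on dim probes, without any 1 control array and without BHD replicates 1, 2 or 3 (highest adjusted p 0.085), and both calls were lost with E1A centring and with normexp.

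The other named pairs had no called probe. At Ercc4, which encodes a DNA repair endonuclease subunit, the probes rclstr_3750_647_8 and rclstr_15026_670_10 changed by -0.11 and -0.03 in BHD against control, a difference of 0.08 (95% interval -0.03 to 0.18). At Rnf41, which encodes a ubiquitin ligase, rclstr_49370_298_1010 and rclstr_34903_253_21 changed by 0.18 and 0.23, a difference of 0.05 (-0.13 to 0.23). At Zfp260, which encodes a zinc finger protein, rclstr_66489_98_1006 and rclstr_58889_286_8 changed by 0.02 and -0.01, a difference of -0.03 (-0.16 to 0.09). Not all of the 12 pairs were this close. The probes at LOC134479676 changed by 0.20 and -0.48 in model against control, a difference of -0.67 (-1.25 to -0.10; limma adjusted p = 0.46). Those at LOC120098949 differed there by 0.35 (0.02 to 0.67; limma adjusted p = 0.46). Those at Lef1l differed by -0.27 (-0.48 to -0.05; limma adjusted p = 0.22) in BHD against control. Over the 12 pairs, the largest difference in size was 0.67 for model against control, 0.51 for BHD against model and 0.27 for BHD against control.

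The largest linked group held 8 probes in 8 pairs with runs of 20 to 39 bases. All 8 probes had higher mean levels in the model than in control, by 0.71 to 1.59, and none was called (limma adjusted p = 0.15 to 0.30). Against control, BHD changes were 0.49 to 0.88 and none was called (limma adjusted p = 0.25 to 0.46). Within this group no unequal change was called in any comparison. The probes share sequence, so their common direction is not 8 separate observations.

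Background correction changed the size of several of these values. With normexp in place of the scanner's processed signal, the changes in BHD against model were -0.24 for rclstr_8237_208_7 (not called, limma adjusted p = 0.066), -0.67 for rclstr_59983_319_1005 and 0.57 for rclstr_54920_77_24. In BHD against control they were 0.49 for rclstr_33014_458_2017, 0.71 for rclstr_32788_497_1017, -0.89 for rclstr_38571_232_18, -0.72 for rclstr_36421_1142_19 and 0.61 for rclstr_54920_77_24, all 5 still called by limma. Each of these probes lay below its arrays' 75th percentile, and each change kept its direction.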

How the data were processed

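Total RNA was labelled with Cy3 from a T16N2 primer and hybridised to 12 one-colour Agilent arrays, 1 per sample, per the labels' protocols. The deposited scanner files give an intensity per spot, with detection and outlier flags. The submitters' processing notes name Agilent Feature Extraction 10.7.1.1. The deposited value table is on a log2 scale with array medians of 6.13, and correlated with the scanner values at 0.999 or above. It was used as an alternative.

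Levels were log2 processed signal minus each array's 75th percentile, averaged over spots of a probe. Spots flagged as outliers were left out. Probes well above background on all 4 arrays of a group were tested (44719) with limma 3.58.1 in R 4.3.3, all 12 arrays in 1 fit, with Benjamini-Hochberg adjustment over all of them and calls at an adjusted p under 0.05. Unequal change was fitted on the within-array difference of the probes of a pair and adjusted over 870 pairs. The scripts were tested on simulated data. Array number limits the precision. Pairs were found with Python 3.11.15.

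For each comparison the text names the rising and the falling concordant pair with the largest change, ranked by the smaller of its 2 changes, and the 2 unequal pairs with the smallest adjusted p from different linked groups, all with both probes well above background on the 8 arrays compared. Pairs at RefSeq windows, the called member of the first comparison and the tiled pair with the largest unequal change are named besides. Members and lists were chosen with earlier results of these data known. Cell type marker lists were not run, because the files do not pair probes with genes. Correlations between the deviations of same-numbered samples were -0.19 to 0.24, and differently numbered samples were not compared. The replicate number was also the array's column on its slide. Alternatives were quantile normalization, E1A centring, normexp with an offset of 50, the deposited values, other detection filters, only the groups compared, a variance trend, a replicate block and leaving out each array.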

Additional observations from a re-analysis of the deposited data

Results flagged for a closer look

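In 4 of the groups of 4 arrays checked, over the probes of the named pairs, a single array stood apart from the other 3. The Ercc4 probe rclstr_3750_647_8 was at -1.033 on BHD replicate 4 against -1.052 to -1.049 on the other BHD arrays. The Rnf41 probe rclstr_49370_298_1010 was at -1.413 on model replicate 2 against -1.548 to -1.534. The Hint1l2 probe rclstr_49415_502_16 was at 8.454 on BHD replicate 2 against 8.662 to 8.684. The LOC102550011 probe rclstr_63292_50_14 was at -3.38 on control replicate 4 against -3.721 to -3.708. In all, 138 groups were checked, and some such gaps arise by chance.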

How the results depend on the processing

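Model against control gave 1 called member and no concordant or unequal pair. The called members were 2 with quantile normalization, 117 with E1A centring, 3 with normexp, 2 with the deposited values, 2 with probes well above background on all 12 arrays, 2 with a variance trend, and 0 with no detection filter, with only the groups compared and with the replicate block. Over all probes tested in these settings, the calls were 51, 2243, 53, 51, 35, 48, 10, 17 and 12, in that order, against 21. Concordant pairs were 34 with E1A centring and 1 with quantile normalization, normexp, the deposited values, the stricter detection filter and the variance trend. Leaving out an array gave 0 to 4 members, 0 to 1 concordant pairs and 0 to 1 unequal pairs. For BHD against model, the 22 members became 14 with no detection filter, 11 with only the groups compared and 12 with the replicate block, the 3 concordant pairs became 1 with the block, and the 18 unequal pairs became 99 with normexp (58 tiled, 17 near-identical and 24 diverging, with 17 of the 18 among them) and 7 with only the groups compared. Over the whole array, the 1428 probes called became 940 with no detection filter, 870 with only the groups compared and 1020 with the block. Leaving out an array gave 10 to 25 members (705 to 1487 of all tested probes), 1 to 6 concordant pairs and 10 to 20 unequal pairs. For BHD against control, the 136 members became 69 with no detection filter and 78 with the block, the 41 concordant pairs became 16, 63 with the variance trend and 22 with the block, and the 23 unequal pairs became 40 with normexp (15 shared), 9 with only the groups compared and 8 with the block (6 shared). Over the whole array, the 4802 probes called became 3395 with no detection filter and 3472 with the block. Leaving out an array gave 49 to 167 members (2400 to 5877 of all tested probes), 11 to 55 concordant pairs and 9 to 22 unequal pairs. The causes were not tested.

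Signs turned only in changes that were not called. The change of rclstr_54609_131_19 in BHD against model was -0.0051 with E1A centring. That of rclstr_3211_4726_17 was 0.0085 with quantile normalization, 0.0090 with normexp and 0.0082 with the deposited values, and between -0.042 and 0.032 without an array. The unequal change of rclstr_33014_458_2017 and rclstr_32788_497_1017 in BHD against control was -0.0089 with quantile normalization and -0.0090 with the deposited values, and between -0.071 and 0.095 without an array. That of rclstr_27910_1749_32 and rclstr_30264_1601_1014 in model against control lay between -0.050 and 0.017 without an array. A slide block could not be fitted, since each group lies on 1 slide and BHD alone on the other. The replicate number was also each array's column on its slide. The replicate block is therefore also a block for slide column, and it is not known to pair the samples.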
